A study of Mus musculus with 6 samples.

Results

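Plasmacytoid dendritic cells were studied as 211 of 56310 cells from the pancreatic lymph nodes of 6 mice. Cells had to hold at least 500 UMIs (unique molecular identifiers, each marking 1 captured RNA molecule) and 300 genes, with at most 10% mitochondrial UMIs. From these, cells were kept that had a UMI of Siglech and detected at least 3 of the 8 genes Siglech, Bst2, Tcf4, Ccr9, Klk1, Cox6a2, Runx2 and Smim5. A cell with any UMI of the T cell gene Cd3e or of the B cell genes Cd79a and Ms4a1 was left out. The cells were thus selected on their measured counts of these 11 genes. Their levels, and how these stand against the levels of other cells, are given as a description, with no test. Tests were run between genotypes only, which includes a comparison of the genotype difference with that in T cells. The lymph nodes came from 3 CD4-Cre- mice (Cre-negative 1 to 3) and 3 CD4-Cre+ mice (Cre-positive 1 to 3), and all 6 carried a floxed gene. CD4-Cre removes floxed DNA in T cells, which pass through a Cd4-expressing stage in the thymus. Strain, sex and age are not given in the labels. Each library is 1 mouse, and the libraries held 47149014 to 61321105 UMIs. Any 2 libraries shared 12 to 36 cell barcodes.

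Plasmacytoid dendritic cells are rare dendritic cells that circulate in blood and enter lymph nodes through their venules. They sense viral and self nucleic acids in endosomes through the receptors Tlr7 and Tlr9 and can answer with large amounts of type I interferon. Their identity depends on the E protein Tcf4, and the inhibitor of E proteins Id2 favours the conventional dendritic cell fate instead.

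Cre-negative mice held 26, 38 and 38 of the cells and Cre-positive mice 31, 37 and 41. Their share of all cells was 0.355%, 0.439% and 0.383% in Cre-negative and 0.297%, 0.356% and 0.427% in Cre-positive mice. The groups overlapped, and the widest 95% Clopper-Pearson interval, that of Cre-negative 2, ran from 0.311% to 0.602%. The means were 0.393% ± 0.0427 and 0.360% ± 0.0654 (SD, n = 3), a difference of -0.0326 percentage points with an exact two-sided permutation p of 0.5. With 3 mice a group this test cannot give a p below 0.1. Intervals cover counting error only.

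**Figure D1:**
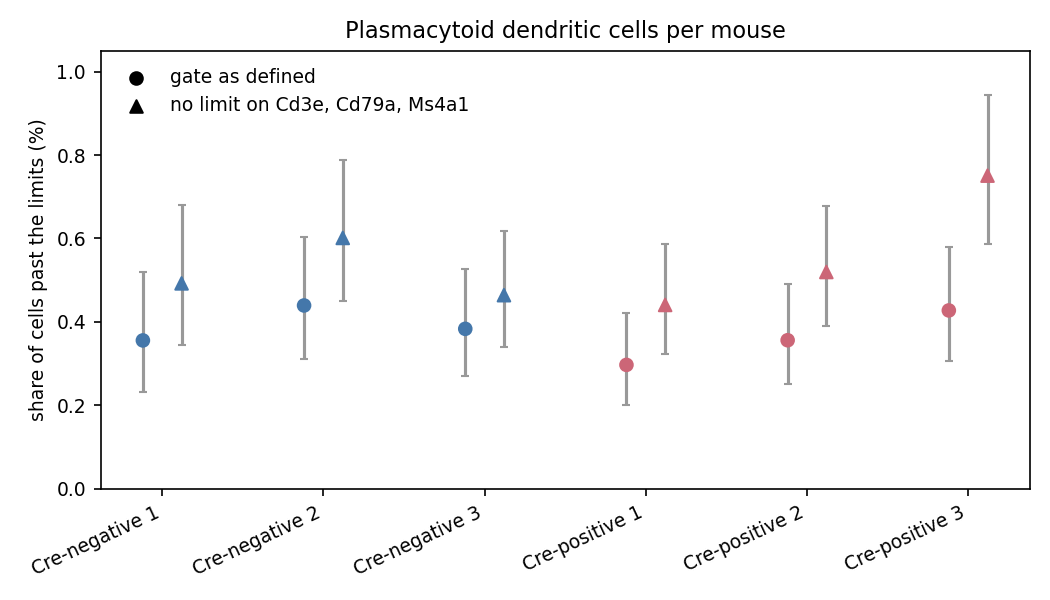
Share of plasmacytoid dendritic cells among all cells past the limits (y axis, %) in each mouse (x axis). Circles show the gate as defined and triangles the gate with UMIs of Cd3e, Cd79a and Ms4a1 allowed, with bars for the 95% Clopper-Pearson interval, blue for Cre-negative and red for Cre-positive mice. The circles of both groups overlap, and the triangle of Cre-positive 3 is the highest at 0.751%.

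The order of the group means changed with the limit on lymphoid genes. Of 410 cells with a Siglech UMI, 174 also had a UMI of Cd3e, Cd79a or Ms4a1 and were left out. Among those 174, 58 detected 6 or more of the 8 gate genes, with a median of 12275 UMIs against 9565 in the 148 selected cells with 6 to 8 gate genes. Of the 58 cells, 26 held just 1 such lymphoid UMI and 19 were called doublets by score, and 18 of them came from Cre-positive 3 against 5 to 13 from each other mouse. With lymphoid UMIs allowed the share was 0.492%, 0.601% and 0.464% in Cre-negative and 0.440%, 0.519% and 0.751% in Cre-positive mice, a difference of 0.0511 percentage points (exact permutation p = 0.7). Relative to cells without the 3 lymphoid genes, the share was 9.43% in Cre-positive 3 and 4.17% to 5.26% in the other mice, over 435 such cells in Cre-positive 3 and 555 to 816 in the others.

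At the edge of the gate the cells were shallow. Cells with a Siglech UMI and no lymphoid UMI that fell outside numbered 10 with 1 and 15 with 2 gate genes, and 22 cells were inside with exactly 3. The 63 selected cells with 3 to 5 gate genes had a median of 1746 UMIs, and 90 cells detected all 8. Another 57 cells had 3 or more gate genes without Siglech. Of the 211 cells, 8 were among the 4285 cells that the doublet score marked.

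Siglech, a lectin-like receptor that signals through the adaptor Tyrobp, stood at 2805, 2030 and 2134 CPM (UMIs of the gene in the summed cells of a mouse, scaled to a total of 1000000) in Cre-negative and 2108, 2427 and 2670 CPM in Cre-positive mice. Bst2, a restriction factor known in mouse as a plasmacytoid dendritic cell antigen, had 4848, 4762 and 3945 CPM against 5218, 4946 and 4990 CPM. Tcf4 had 2386, 1739 and 2286 CPM against 2143, 2275 and 2396 CPM. Bst2 was thus higher in every Cre-positive mouse, by a narrow margin, while Siglech and Tcf4 overlapped.

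Ccr9, a chemokine receptor for gut and thymus homing, had 1400, 753 and 745 CPM in Cre-negative and 942, 891 and 853 CPM in Cre-positive mice. Its highest value came from Cre-negative 1, and the rest lay close together. Klk1, a tissue kallikrein gene, had 711, 493 and 476 CPM against 1037, 649 and 776 CPM, and Cre-negative 1 lay above Cre-positive 2. Runx2, a Runt family transcription factor, had 570, 389 and 476 CPM against 526, 486 and 544 CPM. Smim5, which encodes a small membrane protein, had 428, 479 and 382 CPM against 342, 323 and 379 CPM, so that every Cre-positive mouse was lower.

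Cox6a2, the heart and muscle form of a cytochrome c oxidase subunit, varied least of the 8, with 771, 739 and 773 CPM in Cre-negative and 774, 712 and 826 CPM in Cre-positive mice. T cells had 0.0626 CPM of it and B cells 0.0917 CPM. The form of other tissues, Cox6a1, stood at 207 to 239 CPM in plasmacytoid dendritic cells and at 201 CPM in T cells. No UMI was found of Cox7a1, the muscle form of another subunit.

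The gate genes lie on several chromosomes in GENCODE M21 on GRCm38. Siglech spans chromosome 7 from 55768178 to 55778925, Klk1 the same chromosome from 44225360 to 44229618, and Cox6a2 from 128205435 to 128206387. Bst2 spans chromosome 8 from 71534255 to 71537456 and Ccr9 chromosome 9 from 123678439 to 123784330. Runx2 spans chromosome 17 from 44495987 to 44814797 and Smim5 chromosome 11 from 115899966 to 115906269.

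E proteins such as Tcf4 bind E-boxes, and the 250 bases before the RefSeq start (GRCm38.p6) were searched for CAGGTG, a form of the E-box CANNTG, on both strands. Of the 8 gate genes 5 had an entry, and 4 of the 5 held it (Siglech, Klk1, Ccr9 and Bst2, not Runx2). It stood in 5657 of 32851 windows of that length, or 17.2%. Of 15 further genes that led in these cells, given below, 10 had an entry and 1 held it (Lifr). A core of the interferon-stimulated response element, GAAA and GAAA with any 2 bases between them, on both strands, was found in Bst2, as 2 overlapping matches 130 and 124 bases before the start, and in 2.98% of all windows. The windows of the 4 genes with a CAGGTG match are shown with that of Cd209d, the leading gene outside the gate. Cd209d lacked CAGGTG and the response element core, and held a CANNTG, a Runx and an Ets-Irf match. Capitals mark CAGGTG or its reverse complement CACCTG and, in Bst2, the response element core as well. The last bases of the Siglech window, its match among them, lie inside the gene span that RefSeq gives, which begins before the GENCODE span printed above. The Ccr9 window ends at the RefSeq start but lies inside the longer GENCODE span. A match is a description of the letters and not a binding site.
Siglech window, chr7:55767934-55768183, plus strand: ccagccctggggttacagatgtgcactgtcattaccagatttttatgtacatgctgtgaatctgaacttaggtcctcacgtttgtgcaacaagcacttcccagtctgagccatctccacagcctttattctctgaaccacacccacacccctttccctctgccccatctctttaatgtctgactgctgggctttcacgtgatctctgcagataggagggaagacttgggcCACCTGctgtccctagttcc
Klk1 window, chr7:44225110-44225359, plus strand: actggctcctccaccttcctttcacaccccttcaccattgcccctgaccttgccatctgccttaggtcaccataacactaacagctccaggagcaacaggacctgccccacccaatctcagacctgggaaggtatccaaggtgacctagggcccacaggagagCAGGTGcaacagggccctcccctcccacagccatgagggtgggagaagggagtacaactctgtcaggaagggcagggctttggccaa
Ccr9 window, chr9:123766961-123767210, plus strand: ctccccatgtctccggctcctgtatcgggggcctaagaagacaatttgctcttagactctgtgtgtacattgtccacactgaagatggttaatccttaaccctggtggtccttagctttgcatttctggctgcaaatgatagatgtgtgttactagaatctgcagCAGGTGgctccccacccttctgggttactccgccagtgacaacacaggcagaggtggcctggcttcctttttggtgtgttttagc
Bst2 window, chr8:71537473-71537722, minus strand: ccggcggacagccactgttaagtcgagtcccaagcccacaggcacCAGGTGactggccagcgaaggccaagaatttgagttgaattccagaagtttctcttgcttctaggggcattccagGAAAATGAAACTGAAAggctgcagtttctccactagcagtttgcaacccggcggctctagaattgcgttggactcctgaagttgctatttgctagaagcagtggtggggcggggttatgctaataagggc
Cd209d window, chr8:3878500-3878749, minus strand: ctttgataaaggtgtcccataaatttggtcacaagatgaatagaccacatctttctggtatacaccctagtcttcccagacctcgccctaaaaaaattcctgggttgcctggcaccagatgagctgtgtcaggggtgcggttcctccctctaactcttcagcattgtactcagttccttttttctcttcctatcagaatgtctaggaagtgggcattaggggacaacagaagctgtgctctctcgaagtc

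Genes outside the gate that stood highest over T cells, B cells, conventional and migratory dendritic cells were described by the ratio to the highest of these 4 classes. Each class had a marker gate of its own that also required 0 UMIs of Siglech. Cd209d, a C-type lectin gene of the DC-SIGN cluster, led with 1233, 1322 and 1350 CPM in Cre-negative and 1195, 1369 and 1241 CPM in Cre-positive mice, against at most 1.65 CPM in any comparison class. Ctsl, the lysosomal protease cathepsin L, had 1405, 1489 and 1295 CPM against 1637, 1673 and 1594 CPM, and 3.76 to 13.2 CPM in the other classes. Cd209d overlapped between the groups, and Ctsl was higher in all Cre-positive mice.

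The other leading genes were the kallikrein gene Klk1b27 (256 CPM, mean of 6 mice), the muscle calcium pump gene Atp2a1 (149 CPM), Sh3bgr (127 CPM) and the surface antigen genes Ly6c2 (257 CPM) and Ly6c1 (222 CPM). They also included Pir (206 CPM), the TGF-beta family antagonist gene Lefty1 (149 CPM), the leukaemia inhibitory factor receptor gene Lifr (273 CPM), Rell1 (293 CPM), Pdzd4 (92.2 CPM) and the E-cadherin gene Cdh1 (97.0 CPM). The predicted genes Gm21762 and Gm49087 completed the 15. Lifr and Rell1 reached 9.05 and 11.7 CPM in conventional dendritic cells, and Klk1b27 0 CPM there.

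**Figure D2:**
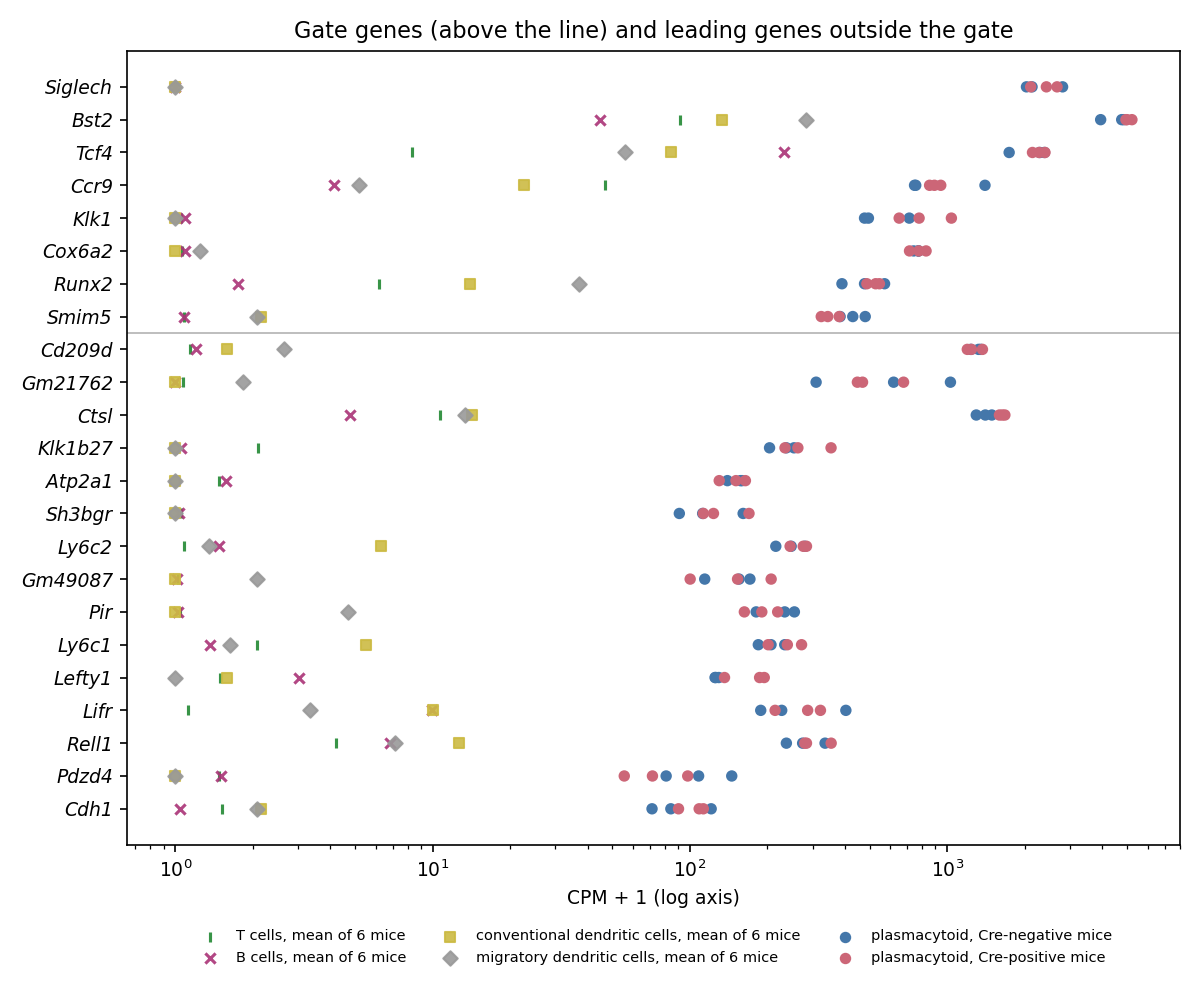
Levels of the 8 gate genes (above the line) and of the 15 leading genes outside the gate, as CPM + 1 on a log axis. Round points are the sums of plasmacytoid dendritic cells in each mouse, blue for Cre-negative and red for Cre-positive, and the other symbols are means of 6 mice in the comparison classes. Cd209d lies above 1000 CPM in every mouse and at most at 1.65 CPM in the comparison classes, while Tcf4 and Bst2 are also seen in other classes.

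Other surface and lysosomal genes known for these cells were expressed at high levels. Of 31 listed, 30 reached 50 CPM, and their sum was 16188 to 19401 CPM against 339 CPM in T cells. Plac8 stood at 2788 ± 233 CPM (SD, n = 6), the pore-forming protein gene Mpeg1 at 1483 ± 242 CPM, the progranulin gene Grn at 1142 ± 190 CPM and Pld4, an endosomal nuclease gene, at 614 ± 59.9 CPM. The groups of mice overlapped for these 4 genes.

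Ly6d, a surface antigen shared with B cells, had 698, 448 and 398 CPM in Cre-negative and 789, 783 and 526 CPM in Cre-positive mice, with overlap between Cre-negative 1 and Cre-positive 3. Cadm1, an adhesion molecule gene, had 672, 580 and 644 CPM against 531, 579 and 485 CPM, lower in each Cre-positive mouse by a narrow margin. Cd300c, an activating receptor gene, had 51.4, 48.6 and 70.2 CPM against 34.7, 29.7 and 38.2 CPM. Of the 31 genes, all tested by genotype, 0 passed (0% of all 4045 genes tested). Groups that did not overlap were counted for 1 gene with Cre-positive higher (4.55% of all genes tested) and 2 with Cre-positive lower (4.43%), near the share over all genes. The median log2 fold change was 0.02.

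Of the 16 transcription factor genes listed for these cells, 11 reached 50 CPM as a mean of 6 mice. Irf8, needed for dendritic cell development, had 3568, 2849 and 2876 CPM in Cre-negative and 3070, 3206 and 2690 CPM in Cre-positive mice, and 611 CPM in conventional dendritic cells. Spib, an Ets factor of plasmacytoid dendritic and B cells, had 270, 326 and 258 CPM against 308, 197 and 282 CPM. The groups overlapped for both. Bcl11a, a zinc finger factor upstream of Tcf4, stood at 586 ± 87.5 CPM (SD, n = 6) and Zeb2, a repressor, at 490 ± 79.0 CPM. Irf7, which switches on interferon genes, ranged from 89.7 to 179 CPM and stood at 17.4 CPM in T cells. By genotype 12 of the factors were tested and 0 passed (0% of all 4045 genes tested). The groups did not overlap for 0 of the 12, beside 8.97% of all genes tested, a share at which 12 genes are too few to tell.

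Id2 differed between the selected cells. It ranged from 4.28 to 341 CPM over the mice, but 224 of its 244 UMIs lay in 21 cells that are described below. In the largest group of 125 cells it stood at 16.4 CPM. Zbtb46, a factor of conventional dendritic cells, had 5 UMIs in all 211 cells.

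Among nucleic acid sensing genes, Tlr7, the receptor for single-stranded RNA, had 176, 139 and 176 CPM in Cre-negative and 139, 108 and 135 CPM in Cre-positive mice. Cre-negative 2 and Cre-positive 1 stood at like values, and T cells had 1.00 CPM. Tlr9, the receptor for unmethylated DNA, was near the limit of detection with 12 UMIs in 10 cells. Unc93b1, which carries both receptors to endosomes, stood at 708 ± 29.6 CPM (SD, n = 6), and Slc15a4, an endosomal transporter needed for their signalling, at 133 ± 31.7 CPM. No UMI was found of Tlr3. Of the 27 genes of this list 13 were tested by genotype and 0 passed (0% of all 4045 genes tested). They had 3 positive and 10 negative fold changes and a median log2 fold change of -0.05. The groups did not overlap for 1 of the 13, near the 8.97% over all genes.

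Receptors that can modulate interferon production were present. Lair1, an inhibitory collagen receptor, stood at 897 ± 146 CPM (SD, n = 6), the receptor gene Klra17 at 339 ± 39.3 CPM and the phosphatase gene Ptprs at 223 ± 31.9 CPM. Lag3 ranged from 59.5 to 184 CPM. The adaptor gene Tyrobp, through which Siglech signals, had 3480 to 4211 CPM.

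No transcript of the main interferon genes was detected. The 17 interferon alpha, beta and lambda genes counted had 0 UMIs in every mouse, which allows up to 1.89 CPM for each gene over the 1589138 UMIs of all 6 mice. Of 30 ligand and cytokine genes 21 had no UMI. The chemokine gene Ccl4 ranged from 15.6 to 441 CPM and was highest in Cre-negative 1 (441 CPM) and Cre-positive 3 (323 CPM). Its level was 230 CPM in the largest group of cells.

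Genes that respond to type I interferon were nonetheless expressed. Their summed level (48 genes, without Bst2) was 5024, 4102 and 3952 CPM in Cre-negative and 5600, 5072 and 4787 CPM in Cre-positive mice, against 2061 to 2745 CPM in T cells. Without Ly6a the remaining 47 genes summed to 2895, 2513 and 2411 CPM in Cre-negative and 2619, 2668 and 2502 CPM in Cre-positive mice, against 1694 to 2215 CPM in T cells. The groups of mice overlapped in both plasmacytoid sums. Of 20 members tested, Bst2 and Ly6a among them, 0 passed (0% of all genes tested), and 8 had a positive and 12 a negative fold change. The groups did not overlap for 3 of the 20 with Cre-positive higher (4.55% of all genes tested) and 2 with Cre-positive lower (4.43%). Bst2 and Ly6a were among the 3. Both counts are above the share over all genes, but they rest on few genes and were not tested. The median log2 fold change of the 20 was -0.03 beside -0.01 over all 4045 genes tested.

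Lymphoid genes stood beside the dendritic programme. Ighm, the heavy chain of IgM, had 1765, 1288 and 975 CPM in Cre-negative and 1295, 1325 and 1232 CPM in Cre-positive mice, and Iglc3, a lambda light chain gene, 886 to 1186 CPM. Iglc3 had 763 CPM in B cells, 2.09 CPM in T cells and 3.00 CPM in conventional dendritic cells. Dntt, the polymerase that adds bases at receptor joints, had 49.6 to 108 CPM against 0.107 CPM in B cells. Rag1 and Rag2, which cut receptor genes, and the B cell factor Pax5 had no UMI in the 211 cells. Cd79b stood at 14.8 to 50.7 CPM against 1106 CPM in B cells.

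T cell markers were low. The 18 listed summed to 93.6 to 209 CPM against 10687 CPM in T cells, with Trac at 5.42 CPM beside 7.21 CPM in B cells, and Cd3e at 0 by the gate. Of 13 natural killer markers 6 had a UMI and 2 reached 50 CPM, while 7 had none, among them Gzma, Gzmb, Prf1, Nkg7 and Klrb1c. The 13 summed to 515 to 2082 CPM, against a mean of 470 CPM in T cells. In the largest group of cells they summed to 541 CPM, of which Klrd1 made up 514 CPM. In the 21 cells set apart below the sum was 3190 CPM, with Ccl5 at 2988 CPM. Klrd1, a lectin receptor gene shared with natural killer cells, had 417 to 531 CPM, and Cd209a, a DC-SIGN gene shared with conventional dendritic cells, 386 to 747 CPM. Of 16 monocyte markers 14 had a UMI and 7 reached 50 CPM, and they summed to 4119 to 5416 CPM, against 4130 CPM in conventional dendritic cells and 170 CPM in T cells. Plac8, Ccr2, Lyz2 and Ly6c2 had the highest means of them, while Fcgr1 was at 0 and Csf1r at 5.82 CPM. Of the 1099 Lyz2 UMIs, 1044 lay in the 21 cells set apart below. Csf1r stood at 42.0 CPM in those cells and at 0 CPM in the largest group.

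Cd4, whose promoter drives the Cre transgene, was expressed in these cells. It stood at 334, 128 and 226 CPM in Cre-negative and 312, 267 and 265 CPM in Cre-positive mice, against 121 to 142 CPM in T cells and 1.72 to 3.10 CPM in B cells. The T cell class was gated on Cd3e and not split by Cd4, so its level is not that of Cd4-expressing T cells alone. In the largest group of 125 cells 94 had a Cd4 UMI, 57 a Cd8a UMI, 44 both and 18 neither. Gh, the growth hormone gene, had 0 UMIs in all 6 mice, which allows up to 3.70 CPM over the 811217 UMIs of the Cre-positive mice. T cells of the same mice held 173, 299 and 298 UMIs of Gh, a pooled level of 7.02 CPM at which the plasmacytoid sums would hold 5.70 UMIs. Whether Cre acted in plasmacytoid dendritic cells was not tested.

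Class II genes were high. Cd74, the invariant chain, had 10172, 9103 and 12700 CPM in Cre-negative and 11557, 10285 and 11591 CPM in Cre-positive mice, beside 23429 CPM in conventional dendritic cells. H2-Aa stood at 5369 ± 788 CPM (SD, n = 6). The costimulatory gene Cd86 had 18.2 CPM and Cd83 16.9 CPM, against 248 and 157 CPM in conventional dendritic cells. In the largest group of cells they stood at 3.28 and 0 CPM, and in the 21 cells set apart below at 105 CPM each. Of 10 genes of this list tested by genotype, 0 passed (0% of all 4045 genes tested).

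Among secretory pathway genes 40 of 42 reached 50 CPM. Their summed level was 11044 to 12755 CPM, against a mean of 4934 CPM in T cells and 6703 CPM in B cells. Herpud1, a gene of the response to misfolded proteins, stood at 547 ± 91.0 CPM (SD, n = 6) and Xbp1, the factor of secretory cells, at 308 ± 53.2 CPM. Of homing genes, the chemokine receptor gene Ccr2 had 694 ± 96.6 CPM and Cxcr3 132 ± 22.9 CPM. Ccr7 had 14.7 to 197 CPM, with 483 CPM in the 21 cells set apart below. Of the growth factor and interferon receptors, Flt3 stood at 168 ± 30.4 CPM and Ifnar2 at 407 ± 42.8 CPM. By genotype 0 of 41 secretory, 0 of 12 homing and 0 of 12 receptor genes passed (0% of all 4045 genes tested). Their median log2 fold changes were 0.05, 0.07 and -0.09.

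Clustering the 211 cells gave 3 groups, made from the same genes and so described without a test. Group 1 held 125 cells with a median of 9861 UMIs and 8 gate genes. Group 2 held 65 cells with a median of 1893 UMIs and 4 gate genes. Group 1 had 21, 21 and 21 cells in Cre-negative and 14, 23 and 25 in Cre-positive mice. Group 2 had 4, 14 and 11 against 12, 12 and 12. Ccr9 stood at 1103 CPM in group 1 and 269 CPM in group 2. The part of this makeup in the levels per mouse was not tested. Group 2 had less Tcf4 (423 CPM against 2631 CPM in group 1) and Irf8 (1767 against 3538 CPM), and more of small mitochondrial protein genes such as Ndufa5 (246 against 97.5 CPM) and Uqcr10 (492 against 186 CPM). Bst2 stood at 7031 CPM and Cox6a2 at 1406 CPM in group 2, against 5211 and 831 CPM in group 1. RNA that stays in the nucleus was lower in group 2, with Malat1 at 353 CPM against 30776 CPM in group 1 and Neat1 at 0 against 123 CPM. The 23 immediate early genes summed to 515 CPM in group 2 and 5609 CPM in group 1. The part of depth or RNA quality in these differences was not tested.

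Group 3 carried markers of other cells. Its 21 cells (1, 3 and 6 in Cre-negative and 5, 2 and 4 in Cre-positive mice) had a median of 10620 UMIs and 4 gate genes. It was led by Lyz2 (4382 CPM against 43.4 CPM in group 1), the chemokine genes Ccl5 (2988 CPM) and Ccl22 (285 CPM), Apoe (1179 CPM), Id2 (940 CPM) and C1qa (466 CPM). Of the 21 cells, 15 had 3 or more migratory dendritic cell markers, 10 a C1q UMI, 12 at least 10 Lyz2 UMIs, and 5 were called doublets. Siglech stood at 693 CPM there. The group was mixed. Some of its cells held many Siglech UMIs, such as 26 with 7 gate genes in a cell of Cre-negative 2. A cell of Cre-positive 1 held 25 with 8 gate genes, and a cell of Cre-negative 1 held 1 with 3 gate genes. The markers go against the plasmacytoid label for the group as a sum, but do not settle it for each cell. The genotype count and the fold changes discussed most are given with and without these 21 cells below.

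**Figure D3:**
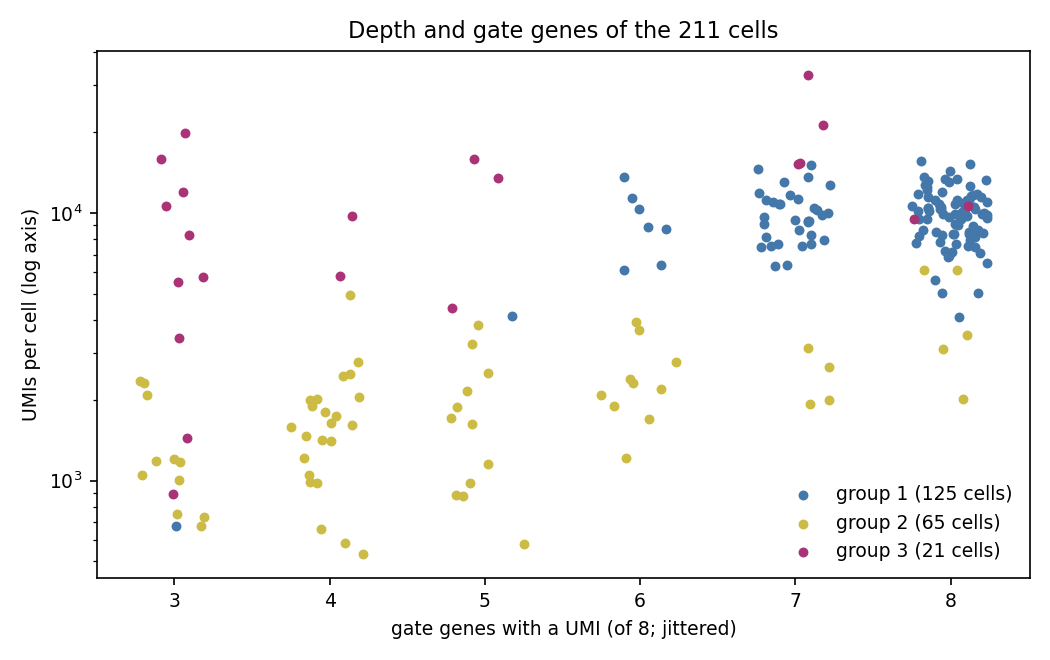
UMIs per cell (y axis, log) against the number of gate genes with a UMI (x axis, jittered) for the 211 cells. Group 1 sits at high depth and 6 to 8 gate genes apart from 2 cells, group 2 at low depth and group 3 at high depth with few gate genes in most of its cells.

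By genotype, 0 of 4045 genes passed in the sums of 26 to 41 cells per mouse (0%; edgeR's quasi-likelihood F test, Benjamini-Hochberg adjustment at 0.05). An unadjusted p under 0.05 was met by 133 genes (3.29%). Without group 3 again 0 genes passed, of 3624 tested, with 161 at an unadjusted p under 0.05. The share of cells without group 3 differed by -0.0326 percentage points, as with it. The groups did not overlap for 184 genes with Cre-positive higher (4.55%) and 179 with Cre-positive lower (4.43%), 8.97% in either direction. The median standard error of a log2 fold change was 0.305. Changes well above that also failed to pass at this depth, such as -1.53 for Tpp2 (SE 0.386, edgeR adjusted p = 0.711). The count of 0 thus does not exclude changes of that size. Fewer cells of a kind and less RNA per cell cannot be told apart in levels summed over cells.

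Of the 10 genes with the smallest p, none passed. Ly6a, the surface antigen Sca-1 and an interferon response gene, had 2129, 1590 and 1541 CPM in Cre-negative and 2981, 2404 and 2285 CPM in Cre-positive mice, so the groups did not overlap. Its log2 fold change was 0.55 (SE 0.142, edgeR adjusted p = 0.711). It was at 407 CPM in T cells, where Cre-negative mice had 369, 415 and 367 CPM and Cre-positive mice 530, 406 and 357 CPM, which overlapped. Without Cre-negative 1 the edgeR adjusted p was 0.0483, and with 6 gate genes required and lymphoid UMIs allowed it was 0.0114. The latter setting adds 58 cells with a lymphoid UMI, 34 of them with Cd3e and 19 called doublets. Without group 3 the log2 fold change was 0.73 (adjusted p = 0.0565). Over the 20 alternatives the log2 fold change ran from 0.43 to 0.75 and passed in those 2 named above. Its 3376 UMIs came from 189 cells, and the highest cell held 3.76% of them. In group 1 alone the log2 fold change was 0.75 and did not pass (edgeR adjusted p = 0.996).

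Cd63, a tetraspanin of endosomes, had 17.1, 27.8 and 27.3 CPM in Cre-negative and 243, 197 and 70.6 CPM in Cre-positive mice (log2 fold change 2.72, adjusted p = 0.601). Over the 12 alternatives that tested Cd63 its log2 fold change ran from 1.33 to 3.14, and it passed in 5. The edgeR adjusted p ran from 6.22e-12 without the low-count filter to 0.9996 with lymphoid UMIs allowed. The groups did not overlap, but the UMIs of Cd63 came from few cells. Of its 145 UMIs 142 lay in group 3 and 0 in group 1. In Cre-positive 2 a single cell held all 53 UMIs, and in Cre-positive 1 one held 40 of 49. The histone variant gene H2afz, ranked below the 10 and named after its values were seen, had 248, 406 and 390 CPM against 1161, 493 and 732 CPM. One cell held 170 of the 234 UMIs of H2afz in Cre-positive 1, and without group 3 its log2 fold change was 0.20. The 15 migratory dendritic cell markers, Cd63 among them, summed to 223, 2790 and 468 CPM in Cre-negative and 2227, 1662 and 409 CPM in Cre-positive mice, with Il12b at 0. In group 1 they summed to 235 CPM and in group 3 to 7123 CPM.

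**Figure D4:**
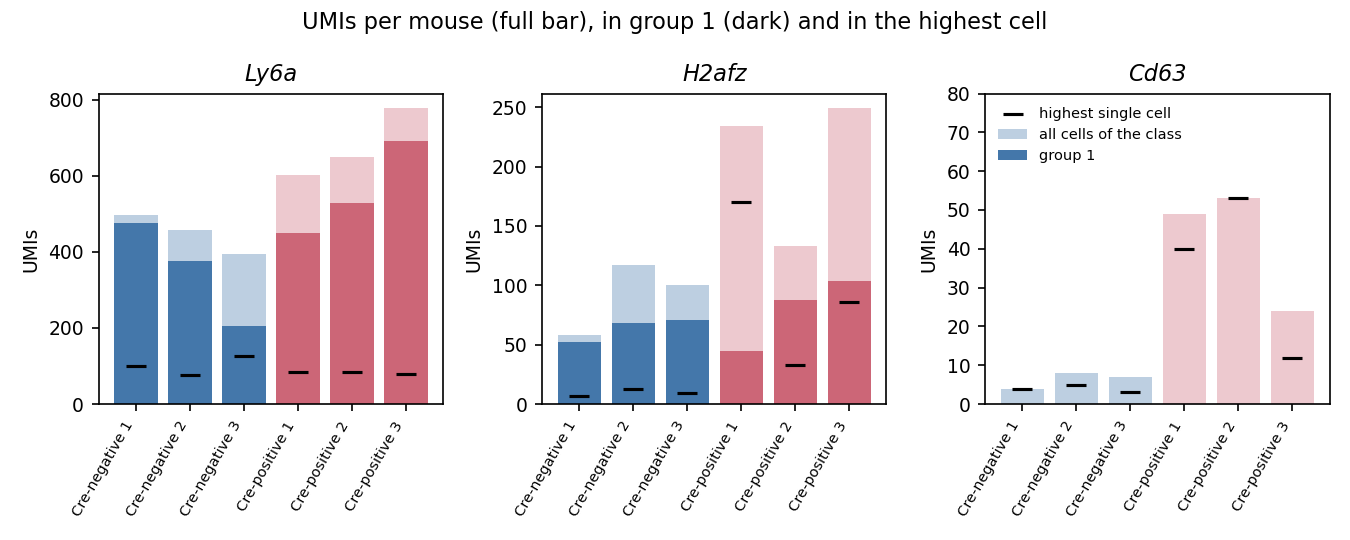
UMIs per mouse (y axis) of Ly6a, H2afz and Cd63 in the plasmacytoid gate. Pale full bars are all cells, dark bars group 1 and black dashes the highest cell of the mouse, blue for Cre-negative and red for Cre-positive mice. Ly6a comes mostly from group 1 and Cd63 from none of it.

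Cd209a had 493, 524 and 386 CPM in Cre-negative and 645, 638 and 747 CPM in Cre-positive mice (log2 fold change 0.53, adjusted p = 0.999). It was higher in every Cre-positive mouse. The remaining genes of smallest p were low. Abi3, an actin regulator, stood at 39.5 ± 5.44 and 91.3 ± 15.7 CPM (SD, n = 3), the linker histone gene Hist1h1c at 79.4 ± 14.9 and 141 ± 41.5 CPM, Tpd52l2 at 27.1 ± 3.66 and 63.4 ± 18.8 CPM and Cd24a at 27.0 ± 13.9 and 70.5 ± 30.7 CPM. Lower in Cre-positive mice were the peptidase gene Tpp2 at 67.8 ± 4.51 and 22.3 ± 11.8 CPM, the adaptor gene Nedd9 at 54.3 ± 5.12 and 19.4 ± 5.10 CPM and Hps5, of organelle biogenesis, at 45.3 ± 6.46 and 12.9 ± 4.15 CPM. The counts behind them were small, from 46 UMIs in all 6 mice for Hps5 and 72 for Tpp2 to 182 for Hist1h1c. Without group 3 the log2 fold changes were 0.51 for Cd209a, 1.16 for Abi3, 0.85 for Hist1h1c, -1.55 for Tpp2 and -1.45 for Nedd9, and none passed.

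**Figure D5:**
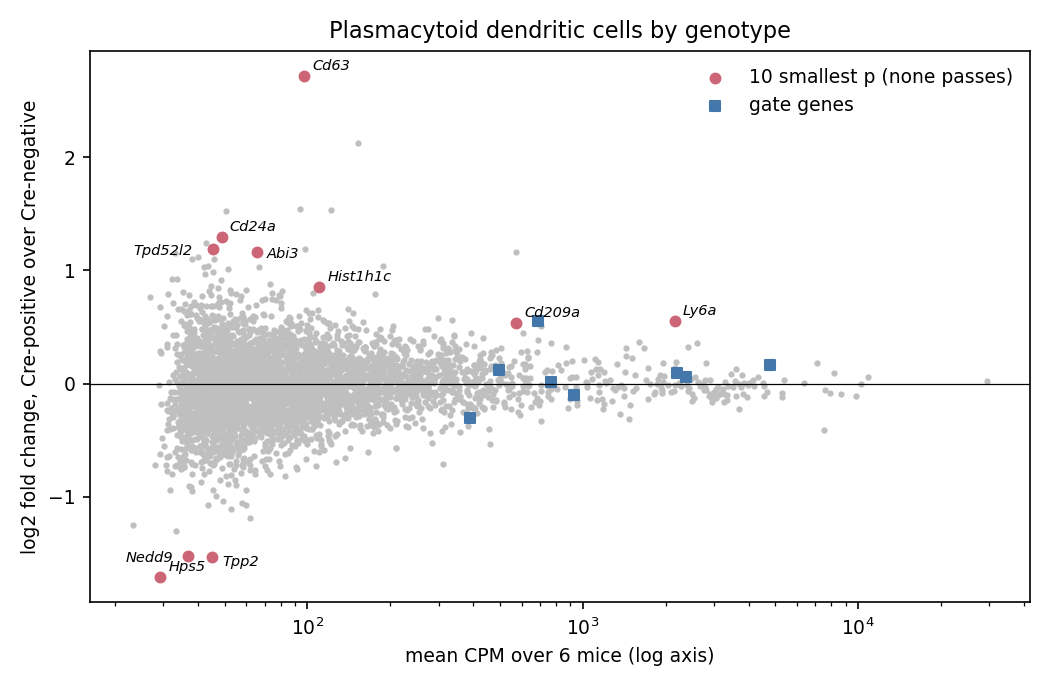
Log2 fold change, Cre-positive over Cre-negative (y axis), against the mean CPM over 6 mice (x axis, log) for the 4045 genes tested in plasmacytoid dendritic cells. Red points are the 10 genes of smallest p, none of which passed, and blue squares the 8 gate genes. The scatter widens toward low levels, where Tpp2, Nedd9 and Hps5 lie, and Cd63 has a log2 fold change of 2.72.

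The genotype difference was also compared with that in T cells, the lineage that CD4-Cre targets, as an interaction over the sums of both classes with the mouse as a block. Of 12391 genes 4 passed (0.0323%), and the differences in log2 fold change were 2.75 for Cd63, 1.03 for H2afz, 1.17 for Hist1h1c and -1.01 for Fosb. For Fosb the plasmacytoid levels overlapped, at 287, 184 and 254 CPM in Cre-negative and 283, 126 and 300 CPM in Cre-positive mice. In T cells Fosb stood at 26.1 to 35.02 CPM in 5 mice and at 126 CPM in Cre-positive 3. The Fosb call was lost in 9 of 11 alternatives, and without that mouse the difference was -0.41 (edgeR adjusted p = 1). Without group 3, 0 of 12237 genes passed, with 379 at an unadjusted p under 0.05, and the H2afz difference was 0.12. The Hist1h1c difference was then 1.19 (edgeR adjusted p = 0.0629) and that of Fosb -1.34 (adjusted p = 1), as large as with group 3. Without called doublets Cd63 and H2afz did not pass (adjusted p = 1 for both), and with 4 gate genes required Cd63 did not. The Hist1h1c call was lost in 6 of 11 alternatives. The difference for Ly6a was 0.41 and did not pass (edgeR adjusted p = 0.743), while with 4 gate genes required it was 0.56 and passed (adjusted p = 0.00152).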

How the data were processed

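Pancreatic lymph node cells of each mouse gave 1 droplet library (10x Genomics). The deposited values are raw UMI counts per gene and barcode. Per the submitters' processing notes, they come from Cell Ranger 6.1.2 and the mm10 build. The annotation release is not given in the sources used here. The floxed gene is not reported here.

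Cells were gated on the counts as the report states. The members and lists were chosen with earlier results of these data known. Doublets were scored with Scrublet in scanpy 1.11.5 (0.8% per 1000 barcodes) and kept, with their removal as an alternative. UMI counts were summed per mouse and tested with edgeR 4.0.16 in R 4.3.3: TMM factors, its low-count filter, robust quasi-likelihood F test, Benjamini-Hochberg adjustment over all tested genes. DESeq2 1.42.0 was an alternative. The fits were tested on simulated counts per mouse, for the interaction with the same dispersion in every gene and sum. Such counts do not reproduce UMIs gathered in single cells, so the check does not bear on calls of that kind. Shares used exact permutation tests in scipy 1.17.1. Groups of cells came from Leiden clustering (leidenalg 0.10.2) on 1000 variable genes and 10 principal components at a resolution of 0.5.

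Named genes were the 8 gate genes, Gh and Cd4, genes that pass, or the 10 of smallest p where fewer than 10 pass. They also include up to 8 members of highest mean per list, members needed for roles, and 15 genes of highest ratio to 4 classes at 50 CPM or more. The plasmacytoid sums held 201611 to 340098 UMIs per mouse. Replicate numbers are in the labels, which do not say that they pair the mice.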

Additional observations from a re-analysis of the deposited data

Results flagged for a closer look

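The genotype difference in plasmacytoid dendritic cells differed from that in T cells for 4 genes in edgeR's interaction test. The difference of log2 fold changes (plasmacytoid minus T cell) was 2.75 for Cd63 (adjusted p = 1.45e-05), 1.03 for H2afz (1.45e-05), 1.17 for Hist1h1c (0.0347) and -1.01 for Fosb (0.0360). In T cells the levels of Cd63 were 5.11 to 9.83 CPM and those of H2afz 442 to 505 CPM. Group 3 held 142 of 145 Cd63 UMIs and 397 of 891 H2afz UMIs. Without group 3 none of the 4 passed, and the difference was 0.12 for H2afz, 1.19 for Hist1h1c and -1.34 for Fosb.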

How the results depend on the processing

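The mean share of plasmacytoid dendritic cells was lower in Cre-positive mice in 15 of 18 alternatives, which all reuse the same 6 mice. Those 15 differences ran from -0.0663 to -0.00101 percentage points, and no exact permutation p was below 0.4. The share was higher with lymphoid UMIs allowed (difference 0.0511 percentage points) and with 6 gate genes and lymphoid UMIs allowed (0.00420). It was also higher relative to cells without the 3 lymphoid genes (1.28). The count of 0 genes by genotype stayed 0 in 12 of 20 alternatives. It was 2 without the low-count filter, 2 with the replicate block, 1 with DESeq2, 6 with 6 gate genes and lymphoid UMIs allowed, and 0 to 2 on leaving out 1 mouse. The 6 were Ly6a, Ly6d, Id3, Trbc2 and Bcl11b, higher, and Tmem176a, lower. Trbc2 and Bcl11b are T cell genes. Of the 58 cells that this setting added, 34 held a Cd3e UMI, 19 were called doublets and 18 came from Cre-positive 3. The part of these cells in the 6 calls was not tested. The labels do not say that the replicate numbers pair the mice. Levels centred within each group had correlations of -0.103, 0.0853 and 0.0136 between mice of the same number. From so few mice and cells these cannot exclude a pairing. The 2 genes with the replicate block were Cd63 and H2afz, as without the low-count filter, and the gene with DESeq2 was Cd63.

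The 4 genes that differed from T cells became 2 without the low-count filter, 0 without group 3 and 2 to 12 on leaving out 1 mouse: 7 without Cre-negative 2, 8 without Cre-positive 1, 12 without Cre-positive 2 and 2 without Cre-positive 3. Without doublets the count was 3, of which Hist1h1c was 1 of the 4 above, with Apoe and Il1b. With 4 gate genes it was also 3, with H2afz, Hist1h1c and Ly6a. The Cd63 difference was -8.85 without group 3, a fitted value with almost no Cd63 UMI left. The cause of the other shifts was not tested. The alternatives that allow lymphoid UMIs, require 6 gate genes or leave out a group of cells were chosen after seeing the data. Depth limits every result here, since the sums rest on 26 to 41 cells per mouse and the dispersion of the T cell comparison is shared by sums of very different size.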
